A study of Mus musculus with 8 samples.

Results

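Hox genes encode homeodomain transcription factors that lie in 4 clusters in the mouse genome, named a, b, c and d. Within a cluster the genes are numbered by paralog group from 1 to 13, and along the embryo the low numbers are used towards the head and the high numbers towards the tail, an order called collinearity. In the gut the Hox genes are known mainly from the mesenchyme and from enteric neurons, where their combinations mark position along the tube, with the highest paralog numbers used in the hindgut. The genes described here were chosen by symbol and class alone, as every protein-coding Hox gene of the 4 clusters in the deposited table. They were 39 genes in 40 rows of 54532, because Hoxd4 was listed under 2 identifiers (ENSMUSG00000101174 and ENSMUSG00000115956).

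RNA came from duodenal tissue of mice with both copies of Zeb2 intact (Zeb2+/+, here WT) and of mice with a global heterozygous Zeb2 knockout (Zeb2+/-), with 4 libraries of each. Zeb2 encodes a zinc-finger repressor, and the series addressed reduced growth after birth in Zeb2+/- mice, a model of Mowat-Wilson syndrome. The sources used here do not give age, strain, or whether animals were pooled. Samples are numbered in the labels with no animal named for each, so every p-value rests on the spread from sample to sample, part of which may be technical. The RNA mixes the cell types of the tissue, so that fewer cells of a type and less RNA per cell cannot be told apart.

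Each of the 8 libraries had between 13579347 and 17137417 reads on genes, as rebuilt from the deposited FPKM (fragments per kilobase of gene and of sequencing depth). At this depth, 1 read of a gene of 1 kilobase was worth 0.0538 to 0.0885 FPKM. A Hox gene near 0.2 FPKM stood on few reads, such as 9 for Hoxc6 (Zeb2+/- library 1) and 13 for Hoxb3 (WT library 1). The WT libraries were more alike (Pearson correlation of log2(FPKM + 0.1) over 16883 genes 0.974 to 0.982) than the Zeb2+/- libraries (0.913 to 0.964). The mean Zeb2 level was 0.943 ± 0.192 FPKM in WT against 0.301 ± 0.146 FPKM in Zeb2+/- (SD of 4 libraries; p = 0.0286 in a two-sided exact permutation test, which can give none smaller), in the direction of the labels. Its limma adjusted p was 0.0427, and it rose to between 0.0729 and 0.145 without any single WT library or without Zeb2+/- library 2, 3 or 4. It was 0.0573 with limma's voom on the rebuilt reads, and 0.0906 to 0.107 with no filter on reads, TPM scaling or scaling to the rebuilt sums. Over all settings tried, the adjusted p ran from 0.0151 to 0.145 and the log2 fold change from -1.74 to -0.58.

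Sequence just before the transcription start is shown for 3 members. They are Hoxa5, the most abundant Hox gene of these libraries, and Hoxb1, which had reads in 1 genotype alone. The third is Hoxa2, whose window matched the same motif as that of Hoxb1, though not in identical bases. Each is the 250 bases before the RefSeq start on GRCm38.p6, 5′ to 3′ on the strand of the gene. Capitals mark matches to TGATNNAT, the motif that PBX and HOX proteins bind together, searched on both strands. The Hoxa5 window is chr6:52204588-52204837 (minus strand), the Hoxa2 window chr6:52164832-52165081 (minus strand) and the Hoxb1 window chr11:96365508-96365757 (plus strand).
Hoxa5: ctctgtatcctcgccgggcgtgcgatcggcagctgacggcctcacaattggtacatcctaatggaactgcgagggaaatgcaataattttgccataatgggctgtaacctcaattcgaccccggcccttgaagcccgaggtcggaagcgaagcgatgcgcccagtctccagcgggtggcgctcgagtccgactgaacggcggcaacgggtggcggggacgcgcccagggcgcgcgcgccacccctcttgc
Hoxa2: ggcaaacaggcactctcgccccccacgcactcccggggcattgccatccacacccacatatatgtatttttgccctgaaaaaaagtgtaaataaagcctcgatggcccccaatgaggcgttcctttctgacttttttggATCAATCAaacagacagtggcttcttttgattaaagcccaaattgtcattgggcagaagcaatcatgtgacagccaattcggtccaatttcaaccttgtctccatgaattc
Hoxb1: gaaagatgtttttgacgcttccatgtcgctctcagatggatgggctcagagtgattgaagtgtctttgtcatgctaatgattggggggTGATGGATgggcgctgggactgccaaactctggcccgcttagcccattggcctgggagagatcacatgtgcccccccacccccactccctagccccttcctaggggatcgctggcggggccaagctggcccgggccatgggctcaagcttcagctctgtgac
The match began 162 bases before the start of Hoxb1 and 111 bases before that of Hoxa2, where it lies on the opposite strand, and the Hoxa5 window held none. RefSeq windows were matched for 22 of the Hox symbols, 24 windows in all, of which 4 (16.7%) held TGATNNAT, against 7.69% of 32841 windows of all genes. The other matches were in Hoxb8 and in 1 of the Hoxd11 windows. CACCTG, the E-box core that ZEB proteins bind, was searched on both strands and stood in 0 of the 24 windows, against 17.2% of all windows. These matches describe letters in a window and are no evidence of binding.

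The Hox transcripts of the duodenum came from the middle of the clusters. Of the 40 rows, 28 had at least 1 read and 12 had 0 reads in all 8 libraries. The 12 were Hoxa11, Hoxa13, Hoxc8, Hoxc10, Hoxc11, Hoxc13, Hoxd3, both rows of Hoxd4, Hoxd11, Hoxd12 and Hoxd13. Hoxa13 and Hoxd13 are the hindgut and limb-end genes of textbook collinearity. A count of 0 over all 8 libraries allows a mean of up to 0.00629 to 0.0139 FPKM, set at 3 reads and covering counting error only. In the annotation 62.3% of the exon bases of Hoxd3 and 52.3% of those of Hoxd4 are shared with other transcripts on the same strand, and whether reads there were counted is not known, so their zeros may not reflect an absence of reads. Of the rows of paralogs 9 to 13, 8 of 16 were at 0, against 3 of 16 for paralogs 4 to 8 and 1 of 8 for paralogs 1 to 3.

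A further 10 genes had reads, but too few over the 8 libraries to be tested. Among them were Hoxb1 (21 reads), Hoxa6 (15), Hoxb9 (8), Hoxd9 (8) and Hoxb13 (5). All 5 reads of Hoxb13, a hindgut and prostate gene, were in WT library 4. The remaining 18 genes had a mean of at least 5 reads per library and were tested. They were 12 of 16 rows of paralogs 4 to 8, 4 of 8 of paralogs 1 to 3, and 2 of 16 of paralogs 9 to 13 (Hoxa9 and Hoxa10).

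By cluster, 7 of 11 rows of Hoxa, 7 of 10 of Hoxb, 3 of 9 of Hoxc and 1 of 10 of Hoxd were tested. The Hoxa cluster lies on GRCm38 chromosome 6 (52155590 to 52260880, minus strand), Hoxb on chromosome 11 (96194316 to 96368256), Hoxc on chromosome 15 (102921103 to 103036852) and Hoxd on chromosome 2 (74668310 to 74765142), the last 3 on the plus strand. In WT the Hoxa cluster gave 45.5% to 65.1% of the summed Hox FPKM, Hoxb 21.1% to 41.7%, Hoxc 9.28% to 14.6% and Hoxd 1.47% to 4.74%. In Zeb2+/- the shares were 53.3% to 65.5%, 24.4% to 36.9%, 7.73% to 14.4% and 1.25% to 2.39%, so the genotypes overlapped for each cluster. For Hoxd the overlap came from WT library 2 alone (1.47%), with the other WT libraries at 4.39% to 4.74%. Hoxd8 was the 1 Hoxd gene with enough reads to be tested.

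**Figure D1:**
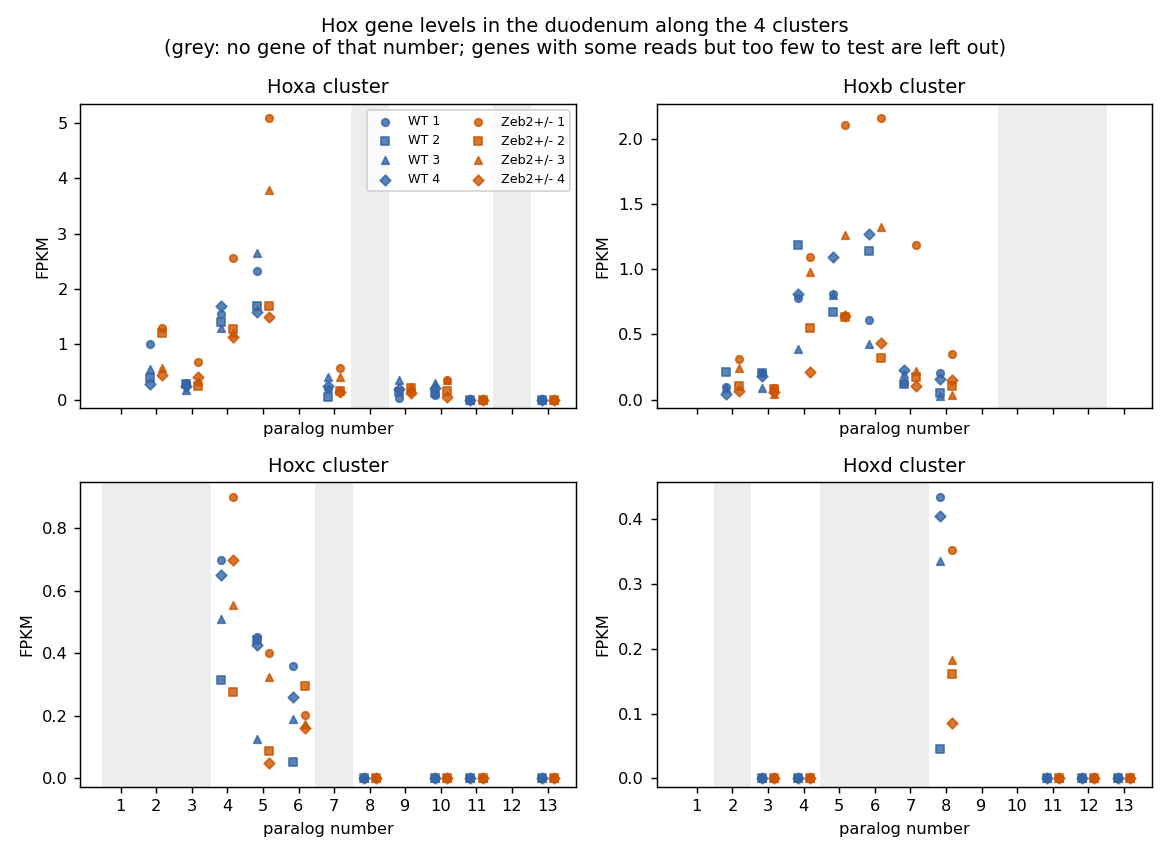
Level of each Hox gene in FPKM (vertical axes, linear and different for each cluster) against its paralog number in the 4 clusters. Each point is 1 library, blue for WT and orange for Zeb2+/-, the marker shape gives the replicate number, grey marks numbers that a cluster lacks, and genes with some reads but too few to test are left out, while genes with 0 reads in all libraries are drawn at 0. The levels peak at paralogs 4 to 6 in Hoxa, Hoxb and Hoxc, and no Hoxc or Hoxd gene from paralog 9 on had enough reads to test.

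Levels were low throughout. Only 3 Hox genes had a mean of at least 1 FPKM, the 4 most abundant made up 54.9% of the summed mean Hox FPKM and the 10 most abundant 81.9%, and 8 of those 10 were paralogs 4 to 8. FPKM is scaled by a gene length that counts annotated exon bases (6014 for Hoxa3, 1594 for Hoxa4), whichever are transcribed here. Comparisons between genes rest on that length. By reads Hoxb5 (331 in all) stood above Hoxa4 (284). Hoxa5 led with a mean of 2.54 FPKM over the 8 libraries, followed by Hoxa4 (1.51) and Hoxb5 (1.002). Hoxa5 lay above Hoxa4 in 7 of 8 libraries, by a mean of 1.029 FPKM with an SD of 1.035 FPKM over libraries. Hoxa4 lay above Hoxb5 in 7 of 8, by 0.512 FPKM with an SD of 0.252 FPKM. Further down, the order of neighbours was less stable. Hoxb5 lay above Hoxb6 in 4 of 8 libraries, Hoxb6 above Hoxb4 in 5, Hoxb4 above Hoxa2 in 3, Hoxa2 above Hoxc4 in 6, Hoxa3 above Hoxb7 in 6 and Hoxb7 above Hoxc5 in 4, with differences smaller than their SD over libraries. Hoxc4 lay above Hoxa3 in 8 of 8.

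The genotypes were compared gene by gene with limma on log2(FPKM + 0.1), fitted over 16883 genes. None of the 18 tested Hox genes passed a Benjamini-Hochberg adjusted p of 0.05 (0 higher and 0 lower in Zeb2+/-), where 2.81% of all tested genes passed (0.361% higher, 2.45% lower). By limma 1 Hox gene had an unadjusted p below 0.05, and with limma's voom on the rebuilt reads 0 passed and 0 had an unadjusted p below 0.05, where 1.4% of all genes passed. The limma adjusted p of the 18 ran from 0.195 to 0.980. Their fitted log2 fold change (Zeb2+/- minus WT) was above 0 in 13 and below 0 in 5, with a median of 0.15 against -0.01 for all tested genes. This split depended on Zeb2+/- library 1. Without Zeb2+/- library 1, 16 of the genes kept enough reads, with 7 above and 9 below 0 and a median of -0.03. Without any other single library, 11 to 15 of 18 stayed above 0. Without Zeb2+/- libraries 1 and 3 together 4 were above and 12 below, with a median of -0.30. Those libraries had the most tested genes above the WT mean (15 and 12, against 4 and 3 in libraries 2 and 4). Leaving them out therefore lowers the values by construction. The genes were measured with less precision than most. Their SE was 0.25 to 0.56 (median 0.41), against a median of 0.25 for all tested genes. Among the 7099 tested genes in the same range of mean FPKM the median SE was 0.32, and 3.61% of those passed.

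The 95% intervals show what these data leave possible. For FPKM + 0.1, the value that was fitted, the interval of each of the 18 excluded a change of 4-fold in either direction. Only 4 excluded 2-fold, and the median interval reached 1.88-fold to either side of its estimate. A miss of the threshold therefore does not show that the levels were alike. Since the scale adds 0.1 FPKM, it understates changes of FPKM itself, most for the lowest genes. Changes of FPKM larger than these bounds were therefore not excluded.

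**Figure D2:**
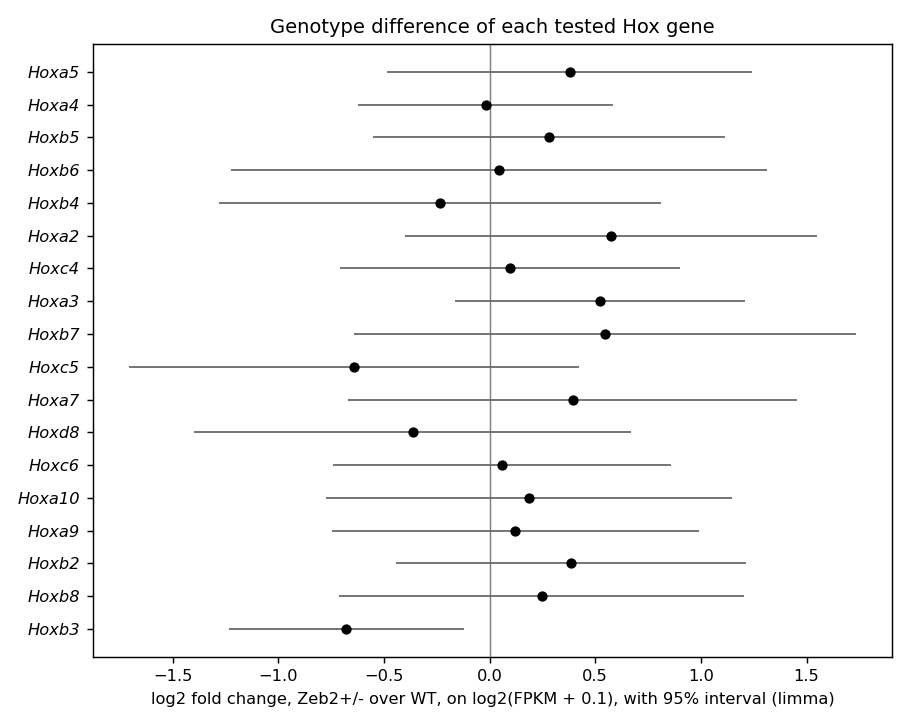
Log2 fold change of each of the 18 tested Hox genes, Zeb2+/- over WT on log2(FPKM + 0.1) (horizontal axis), with limma's 95% interval as a line and genes ordered by mean level. Each interval but that of Hoxb3 (-1.23 to -0.12) includes 0.

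Hoxa5 (ENSMUSG00000038253, chromosome 6, 52201754 to 52204587), which is needed in mesenchyme for lung, stomach and gut development, was at 2.33, 1.69, 2.66 and 1.59 FPKM in WT libraries 1 to 4 and at 5.10, 1.70, 3.79 and 1.495 FPKM in Zeb2+/- libraries 1 to 4. Zeb2+/- libraries 1 and 3 lay above every WT library, library 2 within their range and library 4 below it. The means were 2.07 ± 0.512 and 3.02 ± 1.73 FPKM (SD, n = 4 each), and the log2 fold change was 0.38 (SE 0.38, limma adjusted p = 0.665). It stayed between 0.075 and 0.64 with any single library left out. Without Zeb2+/- libraries 1 and 3, its highest values, it turned to -0.33, a removal that lowers it by construction. These levels stood on 178 reads in Zeb2+/- library 1 and on 36 reads each in libraries 2 and 4.

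Hoxa4 was at 1.54, 1.40, 1.30 and 1.70 FPKM in WT, against 2.56, 1.28, 1.21 and 1.13 FPKM in Zeb2+/-. In Zeb2+/- library 1 stood above all others, while the other 3 lay below every WT library. The log2 fold change was -0.02 (SE 0.27, 95% interval -0.62 to 0.58, adjusted p = 0.980), and lay between -0.28 and 0.10 when single libraries were left out. Hoxb4, a paralog known from the expansion of blood stem cells, was at 0.775, 1.19, 0.388 and 0.812 FPKM in WT, against 1.09, 0.552, 0.979 and 0.213 FPKM in Zeb2+/-, with ranges that overlapped. Its log2 fold change was -0.23 (SE 0.47, adjusted p = 0.841) and 0.16 without Zeb2+/- library 4. Hoxc4, the third paralog of this number with reads, was at 0.697, 0.315, 0.508 and 0.649 FPKM in WT, against 0.900, 0.276, 0.554 and 0.698 FPKM in Zeb2+/-, also overlapping (log2 fold change 0.10, SE 0.36, adjusted p = 0.923, and -0.10 without WT library 2 or without Zeb2+/- library 1).

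Hoxb5 is known from enteric neural crest cells, where it acts upstream of the receptor gene Ret. It was at 0.809, 0.669, 0.798 and 1.10 FPKM in WT, against 2.10, 0.635, 1.26 and 0.644 FPKM in Zeb2+/-. As with Hoxa5, Zeb2+/- libraries 1 and 3 were the highest, and here libraries 2 and 4 were the lowest of all 8. The log2 fold change was 0.28 (SE 0.37, adjusted p = 0.750) and -0.04 without Zeb2+/- library 1. Hoxb6, its neighbour in the cluster, was at 0.608, 1.14, 0.429 and 1.27 FPKM in WT, against 2.16, 0.315, 1.32 and 0.437 FPKM in Zeb2+/-, with the same pair of Zeb2+/- libraries above every WT library. Its fitted difference was near 0 (0.04, SE 0.56, adjusted p = 0.979), and ran from -0.39 without Zeb2+/- library 1 to 0.42 without another single library. The next gene, Hoxb7, was at 0.129, 0.121, 0.199 and 0.225 FPKM in WT, against 1.18, 0.172, 0.217 and 0.101 FPKM in Zeb2+/-, so that 1 library with 34 reads stood apart from 7 with 2 to 5 reads each (log2 fold change 0.55, SE 0.53, adjusted p = 0.647).

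Hoxc5 was at 0.451, 0.442, 0.124 and 0.427 FPKM in WT, against 0.400, 0.0860, 0.325 and 0.0505 FPKM in Zeb2+/-. In Zeb2+/-, libraries 2 and 4 lay below every WT library, on 3 and 2 reads. The log2 fold change was -0.64 (SE 0.47, adjusted p = 0.531), and from -0.96 to -0.35 when single libraries were left out. Of the central genes with lower levels, Hoxa7, Hoxb8, Hoxc6 and Hoxd8 had log2 fold changes of 0.39, 0.25, 0.06 and -0.37 with adjusted p of 0.724, 0.814, 0.955 and 0.736.

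Among the anterior genes, Hoxa2, the selector gene of the second pharyngeal arch, was at 1.01, 0.385, 0.562 and 0.274 FPKM in WT, against 1.30, 1.20, 0.566 and 0.439 FPKM in Zeb2+/-. The genotypes overlapped, with Zeb2+/- libraries 1 and 2 above every WT library. The log2 fold change of 0.57 (SE 0.43, adjusted p = 0.542) was the largest positive one of the 18. Hoxa3, needed for thymus and parathyroid, was at 0.298, 0.289, 0.166 and 0.254 FPKM in WT, against 0.688, 0.250, 0.334 and 0.415 FPKM in Zeb2+/-, where 3 libraries lay above every WT library (log2 fold change 0.52, SE 0.31, adjusted p = 0.415). Hoxb2 had a log2 fold change of 0.38 (adjusted p = 0.642). In the Gencode annotation 15.0% of the exon bases of Hoxa2 and 8.01% of those of Hoxa3 are shared on the same strand with the transcript Gm28308, and the sources used here do not say how the authors' counting treated shared bases.

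The posterior genes with enough reads were both in Hoxa. Hoxa9 was at 0.0238, 0.145, 0.357 and 0.187 FPKM in WT, against 0.164, 0.206, 0.225 and 0.112 FPKM in Zeb2+/-, and Hoxa10 at 0.0811, 0.114, 0.305 and 0.212 FPKM in WT, against 0.362, 0.162, 0.358 and 0.0477 FPKM in Zeb2+/-. Both overlapped between the genotypes (log2 fold changes 0.12 and 0.19, adjusted p = 0.907 and 0.865). Without WT library 1 that of Hoxa9 was -0.22, and without Zeb2+/- library 1 that of Hoxa10 was -0.02.

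Hoxb3 (chromosome 11, 96323326 to 96347930) was the 1 tested Hox gene whose genotypes did not overlap, as 13.6% of all tested genes did not. It was at 0.203, 0.205, 0.0902 and 0.180 FPKM in WT (13, 14, 5 and 11 reads) and at 0.0885, 0.0833, 0.0394 and 0.0550 FPKM in Zeb2+/- (7, 4, 2 and 3 reads). The lowest WT library lay just above the highest Zeb2+/- library, and the means were 0.169 ± 0.0540 and 0.0666 ± 0.0233 FPKM (SD, n = 4 each). The log2 fold change was -0.68 (SE 0.25, limma unadjusted p = 0.0218, adjusted p = 0.195), so it did not pass over all genes, and it did not pass under any alternative (adjusted p 0.0868 to 0.446). Antisense transcripts cover 52.9% of the exon bases of Hoxb3. Of these, Hoxb3os was at a mean of 0.0493 FPKM in WT, against 0.0920 FPKM in Zeb2+/-, and Gm11536 at 0.290 and 0.0827 FPKM on 12 reads in all. The kit marks strand, but the sources used here do not give the strand setting of the counting, so reads of the gene and of its antisense partners may not have been told apart. Antisense exons also cover 27.3% of the exon bases of Hoxb2, 25.4% of Hoxa3, 20.4% of Hoxa7 and 16.0% of Hoxa4.

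**Figure D3:**
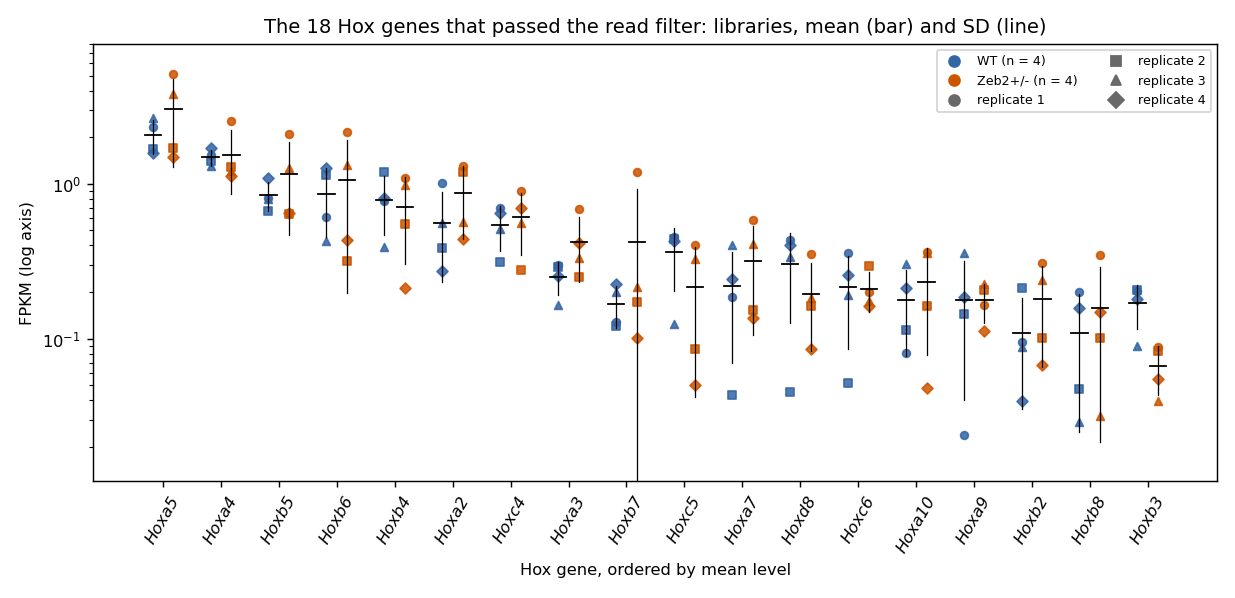
FPKM of the 18 tested Hox genes (vertical log axis), WT in blue and Zeb2+/- in orange, with the mean as a bar and the SD of 4 libraries as a line. Zeb2+/- library 1 (orange circles) is the highest library for 12 of the 18, and Hoxb3 at the right is the 1 gene whose genotypes do not overlap.

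Hoxb1, the gene of rhombomere identity in the hindbrain and a direct target of retinoic acid, was below the limit for testing and was singled out after its values were seen. It lies on chromosome 11 (ENSMUSG00000018973, 96365752 to 96368256, plus strand), where it ends the Hoxb cluster. Each WT library had 0 reads of it, and the Zeb2+/- libraries had 9, 2, 5 and 5 reads (0.208, 0.0762, 0.180 and 0.168 FPKM), a mean of 0.158 ± 0.0572 FPKM (SD, n = 4). The 21 reads have an exact Poisson 95% interval of 12.999 to 32.1. The low end of that interval was set against a floor of 3 reads over the WT group (0.0220 FPKM). On pooled reads this gave a level 4.65-fold higher in Zeb2+/-, a bound that covers counting error only. It leaves out the spread between libraries and the choice of the gene by its values. Limma without the filter on reads gave an adjusted p of 0.0776 over all genes, which did not pass. Of 3951 genes with 10 to 39 reads in all, 4 (0.101%), Hoxb1 among them, had 0 reads in every WT library and reads in every Zeb2+/- library. That pattern was itself taken from Hoxb1. Among all genes with reads below the filter, 1.63% had genotypes that did not overlap.

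Summed over the family, the 39 genes were at 10.3, 8.99, 9.57 and 10.6 FPKM in WT (9.86 ± 0.722) and at 20.3, 8.48, 12.6 and 6.83 FPKM in Zeb2+/- (12.1 ± 6.02; SD, n = 4 each). The WT libraries were within a narrow range, and Zeb2+/- lay on both sides of it. The sums stood on 363, 349, 290 and 363 reads in WT and on 873, 215, 358 and 212 reads in Zeb2+/-. Between 20 and 23 Hox genes had a read in each WT library and between 20 and 22 in each Zeb2+/- library. Zeb2+/- library 1 was the highest of the 8 for 12 of the 18 tested genes, as it was for 34.0% of tested genes in the same range of FPKM. Against the WT mean, 15 of the 18 were higher in Zeb2+/- library 1, 4 in library 2, 12 in library 3 and 3 in library 4. The SD relative to the mean was larger in Zeb2+/- than in WT for 12 of the 18, with medians of 57.5% and 45.5%.

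Cell type markers also differed between these libraries. The summed level of 10 smooth muscle markers was 262, 252, 225 and 286 FPKM in WT, against 699, 285, 481 and 304 FPKM in Zeb2+/-, and that of 10 enteric neuron markers 11.7, 11.3, 13.8 and 15.1 FPKM and 32.5, 15.9, 18.7 and 17.6 FPKM. In FPKM both lists were highest in Zeb2+/- library 1 and next highest in library 3, like the Hox sum. The enteric glia list had that order too (2.56 and 2.47 FPKM). The B cell (137 FPKM), mesothelium (4.56 FPKM) and Polycomb (171 FPKM) sums were also highest in Zeb2+/- library 1, but not next highest in library 3. For the Hox sum the second place of library 3 did not hold in reads. Library 3 had 358 Hox reads of 16303910 on genes, against 363 of 15780021 and 363 of 15846208 in WT libraries 1 and 4. Its library total implied by the FPKM was 0.733 times the reads on genes, the lowest of all libraries. The marker sums were not compared as reads. The sum of 6 epithelial markers was 5701 to 8559 FPKM in WT and lowest in Zeb2+/- library 1, at 2844 FPKM, against 6187 to 7941 FPKM in the other 3. The fibroblast sum ran the other way between genotypes, at 99.5 to 145 FPKM in WT, against 29.9 to 72.3 FPKM in Zeb2+/-. The part of these cell types in the Hox levels was not tested.

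**Figure D4:**
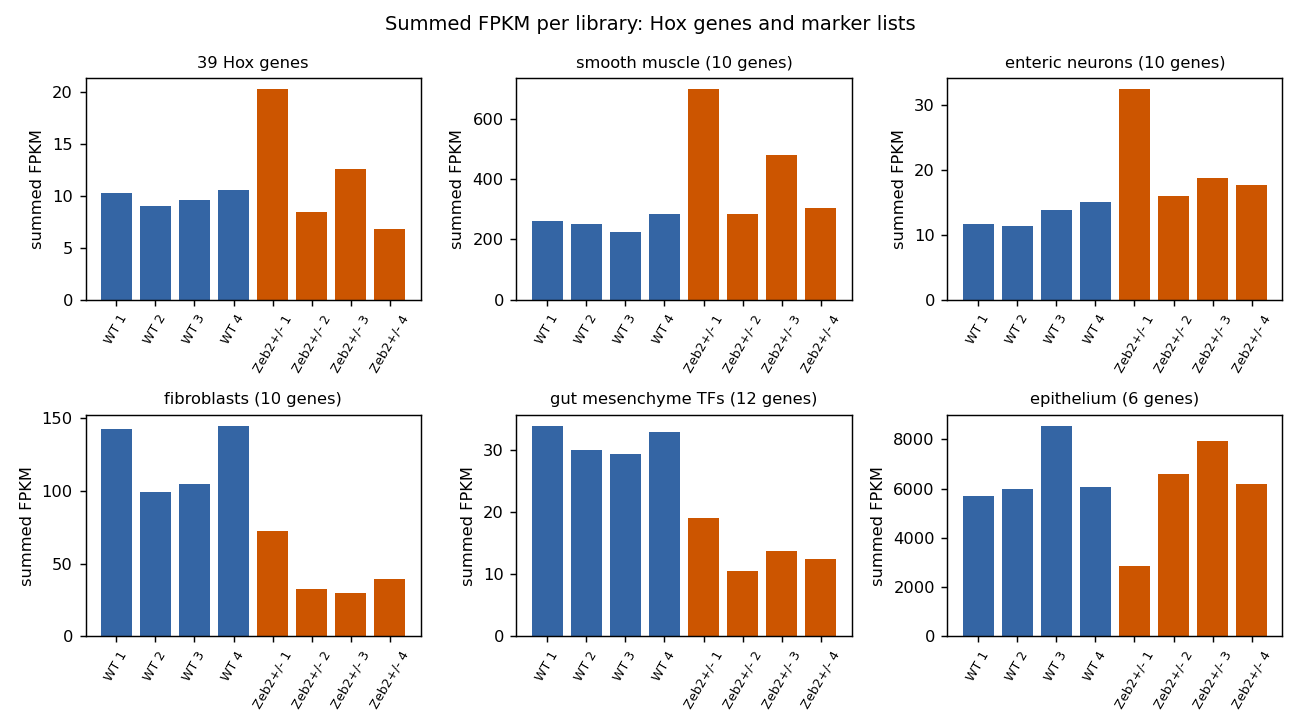
Summed FPKM per library (vertical axes from 0) of the 39 Hox genes and of 5 lists of marker or mesenchymal genes, WT in blue and Zeb2+/- in orange. The Hox, smooth muscle and enteric neuron sums are highest in Zeb2+/- library 1, while the fibroblast and mesenchymal transcription factor sums are lower in each Zeb2+/- library than in each WT library.

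The make-up of the Hox transcripts by paralog number can be read apart from their amount. Paralogs 4 to 8 gave 82.8%, 80.3%, 80.5% and 85.6% of the Hox FPKM in WT and 83.6%, 74.6%, 82.8% and 78.8% in Zeb2+/-. Paralogs 1 to 3 gave 15.9%, 13.7%, 10.9% and 8.22% in WT and 13.4%, 20.1%, 12.5% and 17.8% in Zeb2+/-, and paralogs 9 to 13 the remaining 1.32% to 8.58% and 3.02% to 5.24%. The FPKM-weighted mean paralog number was 4.68 to 5.23 in WT (4.97 ± 0.287) and 4.65 to 4.93 in Zeb2+/- (4.80 ± 0.131; SD, n = 4 each). Each of these measures overlapped between the genotypes, also in Zeb2+/- library 1, where the Hox total was highest.

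**Figure D5:**
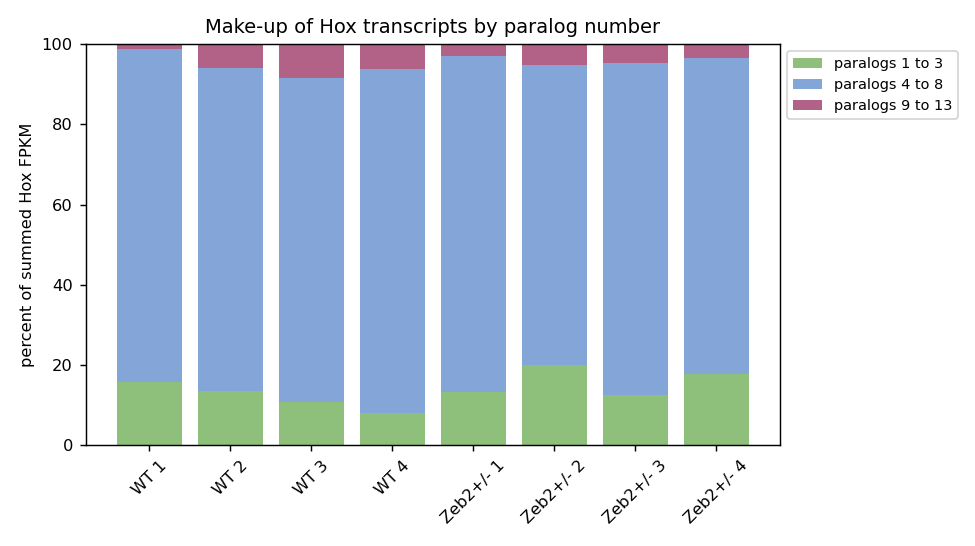
Share of the summed Hox FPKM (vertical axis, percent) from paralogs 1 to 3, 4 to 8 and 9 to 13 in each library. Paralogs 4 to 8 hold 74.6% to 85.6% in every library.

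The clusters also hold 46 rows of other genes and transcripts, of which 30 had 0 reads and 3 had enough to be tested. None of the 3 passed in limma, and none had an unadjusted p below 0.05 (0 passed by voom). They were the antisense transcript Hoxaas3 (log2 fold change 0.17, adjusted p = 0.785), 5730596B20Rik (0.77, SE 0.37, adjusted p = 0.311) and Hoxaas2 (0.14, adjusted p = 0.904), all in the Hoxa cluster.

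The partners and regulators of Hox genes were followed in lists written from general knowledge. HOX proteins bind DNA with TALE homeodomain cofactors, and 0 of 9 tested cofactor genes passed in limma (0 with an unadjusted p below 0.05, 0 by voom). The most abundant were Pbx2 (9.25 ± 1.31 FPKM in WT against 9.64 ± 1.68 FPKM in Zeb2+/-) and Pknox1 (3.40 ± 0.258 and 3.28 ± 0.405 FPKM). Cdx genes, which act upstream of Hox genes in the embryo and specify intestinal epithelium, were far more abundant than any Hox gene. Cdx2 was at 74.5 ± 4.44 FPKM in WT against 91.3 ± 13.8 FPKM in Zeb2+/- (adjusted p = 0.365), and Cdx1 at 63.4 ± 4.29 and 63.8 ± 15.6 FPKM (adjusted p = 0.967). Of the 6 genes in the Cdx and ParaHox list, 0 of 3 tested passed (0 with an unadjusted p below 0.05, 0 by voom) and Cdx4, Gsx1 and Gsx2 had 0 reads.

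Retinoic acid is an inducer of anterior Hox genes, and 2 of 12 tested genes of its signalling were lower in Zeb2+/- and 0 higher, with a list median log2 fold change of -0.20. Both encode enzymes that make retinoic acid. Aldh1a3 was at 15.1 ± 1.40 FPKM in WT against 2.25 ± 0.906 FPKM in Zeb2+/- (log2 fold change -2.79, SE 0.30, adjusted p = 0.00180), and Aldh1a2 at 5.32 ± 0.275 and 1.54 ± 0.257 FPKM (-1.74, SE 0.15, adjusted p = 0.00121). Both passed by voom as well. Aldh1a1, the most abundant gene of the list, did not pass in limma (adjusted p = 0.789). It was at 214 ± 71.1 FPKM in WT against 187 ± 58.3 FPKM in Zeb2+/-. Fibroblast, endothelial and macrophage markers were lower in the same libraries, with list medians of -1.61, -1.65 and -1.98, and their part in these values was not tested. Polycomb proteins keep Hox genes silent and Trithorax proteins keep them active. None of 22 tested Polycomb genes passed (2 with an unadjusted p below 0.05, 0 by voom, list median 0.08) and none of 9 Trithorax and H3K27 demethylase genes (1 with an unadjusted p below 0.05, 0 by voom, median 0.01). Among them Suz12 was at 18.4 ± 0.509 FPKM in WT against 19.7 ± 1.03 FPKM in Zeb2+/-, Rbbp7 at 30.2 ± 1.53 and 31.6 ± 9.03 FPKM, Dpy30 at 17.3 ± 1.85 and 21.9 ± 3.37 FPKM, and Kdm6b at 17.6 ± 2.57 and 15.8 ± 6.09 FPKM.

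A minority of other transcription factors of the gut mesenchyme, the tissue in which Hox genes are best known, passed. Of 9 tested, 2 were lower in Zeb2+/- and 0 higher, and 1 passed by voom. Of all tested genes 2.45% were lower and 0.361% higher in limma. The list had a median log2 fold change of -0.91. The median was 0.15 for the Hox genes (-0.03 without Zeb2+/- library 1) and -0.01 for all tested genes. Tcf21, a regulator of visceral mesenchyme, fell from 7.53 ± 1.04 to 1.42 ± 0.322 FPKM (-2.34, SE 0.19, adjusted p = 0.00104). Nkx2-3, a homeodomain factor of gut and spleen mesenchyme, fell from 10.3 ± 0.311 to 4.30 ± 2.20 FPKM (-1.35, SE 0.28, adjusted p = 0.0361). Leaving out any single WT library, or Zeb2+/- library 2, 3 or 4, moved the adjusted p of Nkx2-3 to between 0.0644 and 0.119, and with voom it was 0.0924. The summed level of this list was 29.4 to 34.0 FPKM in WT, against 10.6 to 19.1 FPKM in Zeb2+/-. The Zeb2+/- libraries were also lower in fibroblast markers, whose part in these values was not tested.

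Lists of epithelial genes named for a position along the gut were counted in the same way. Their members are not each confined to that position. In WT duodenum Amn of the distal list was at 72.8 FPKM and Slc26a3 of the colon list at 32.7 FPKM. Of the proximal small intestine list 0 of 10 passed (1 with an unadjusted p below 0.05, 0 by voom), with Fabp1, a fatty acid binding protein, at 3849 ± 444 and 4501 ± 1452 FPKM and S100g, a calcium binding protein, at 162 ± 81.2 and 156 ± 129 FPKM. Of the distal small intestine list 0 of 6 passed (2 with an unadjusted p below 0.05, 0 by voom), with the vitamin B12 receptor genes Amn at 72.8 ± 13.6 and 108.5 ± 31.1 FPKM and Cubn at 37.1 ± 17.2 and 20.6 ± 12.5 FPKM. In the colon list 1 of 4 was higher in Zeb2+/-, the water channel Aqp8 (0.996 ± 0.380 and 4.50 ± 1.87 FPKM, log2 fold change 2.04, SE 0.32, adjusted p = 0.0103, also passing by voom), beside the chloride exchanger Slc26a3 (32.7 ± 0.408 and 40.9 ± 10.2 FPKM) and the water channel Aqp4 (3.54 ± 0.291 and 2.26 ± 0.752 FPKM), which did not pass. In the gastric list 2 of 5 were lower in limma and 0 by voom. Tff2, a trefoil peptide, was at 2.63 to 17.1 FPKM in WT, against 0 to 0.534 FPKM in Zeb2+/- (adjusted p = 0.00481, 0.0855 by voom). Pgc, the pepsinogen C gene, was at 0.287 to 0.939 FPKM and 0 to 0.0775 FPKM (adjusted p = 0.0292, 0.119 by voom), and it missed the threshold without WT library 1 or 4 or Zeb2+/- library 2, 3 or 4 (adjusted p 0.0602 to 0.0693). By library Tff2 was at 7.95, 15.2, 2.63 and 17.1 FPKM in WT, where the summed level of 5 pancreatic acinar genes was 923, 1623, 120 and 1766 FPKM, in the same order. In Zeb2+/- the acinar sum was 0 to 4.54 FPKM, and its part in the Tff2 values was not tested.

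Of the cell type lists, 0 of 10 smooth muscle genes passed in limma (6 with an unadjusted p below 0.05), 0 of 10 enteric neuron genes (5), 0 of 4 glial genes (1), 0 of 5 B cell genes (0), 0 of 6 epithelial genes (1) and 0 of 3 mesothelial genes (0), and by voom 0 of each. The most abundant muscle markers, Acta2 and Actg2, had fitted log2 fold changes of 0.69 and 0.82 (adjusted p = 0.277 and 0.147), and the neuron list had a median of 0.74. Abundant genes of the other lists with no call were Uchl1 (3.59 ± 0.667 FPKM in WT against 6.23 ± 3.11 in Zeb2+/-) and Vip (3.91 ± 0.578 against 4.30 ± 1.26) of neurons, S100b (0.405 ± 0.221 against 0.966 ± 0.360) of glia, and Cd79b (7.54 ± 6.65 against 20.3 ± 23.0) and Cd79a (7.89 ± 6.94 against 19.9 ± 23.1) of B cells. For the epithelium they were Alpi (1955 ± 550 against 1537 ± 757) and Krt8 (1622 ± 263 against 1424 ± 447), and for the mesothelium Upk3b (1.10 ± 0.616 against 1.35 ± 0.921) and Msln (1.02 ± 0.742 against 1.11 ± 0.502). Lower in Zeb2+/- were 6 of 10 fibroblast genes (Col14a1, Col6a2, Pdgfrb and Col6a1 with the smallest p; 4 by voom), 5 of 6 endothelial genes (Kdr, Tie1, Eng and Cdh5; 4 by voom), 3 of 5 macrophage genes (Adgre1, Tyrobp and Csf1r; 3 by voom), 1 of 5 T cell genes (Cd3e; 0 by voom; Trac and Cd8a, the most abundant, did not pass) and 5 of 5 pancreatic acinar genes (Prss2, Ctrb1, Cela3b and Cpa1; 0 by voom). The calls of Csf1r and Cd3e were lost without any single WT library and without Zeb2+/- library 4, and that of Csf1r also without library 2 and that of Cd3e without library 3, with adjusted p of up to 0.126 and 0.122. Pdgfra of the fibroblast list and Emcn of the endothelial list were lost without any single WT library or Zeb2+/- library 2, 3 or 4 (adjusted p up to 0.157 and 0.125), and Col3a1 of the fibroblast list without WT library 1 or 4 (0.0622 and 0.0567). Of the islet genes, 1 was tested (Iapp, 0.866 ± 0.264 and 0.915 ± 0.306 FPKM) and 0 passed; Ins2, the other abundant one, was below the limit for testing.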

How the data were processed

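RNA of mouse duodenum was measured in 4 WT and 4 Zeb2+/- libraries. Poly-T beads enriched messenger RNA, and dUTP made the libraries directional, per the labels' protocols. Per the submitters' processing notes, HISAT2 2.0.5, featureCounts 1.5.0-p3 and GRCm38 (mm10) were used. The sources used here give no strand setting, annotation release or handling of shared bases. The deposited values are FPKM as the authors scaled them. FPKM times the deposited gene length gave whole reads for 100% of values above 0 (tolerance 0.01 read). The library total implied by the authors' FPKM was 0.733 to 1.16 times the rebuilt sum, a scale factor whose origin is not given.

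Genes with a mean of at least 5 rebuilt reads over the 8 libraries (16883) were tested with limma 3.58.1 in R 4.3.3 (lmFit, eBayes with trend and robust, genotype as the only term) on log2(FPKM + 0.1), two-sided, with Benjamini-Hochberg adjustment over all of them and a threshold of 0.05. The pseudocount and filter were set low because most Hox genes are below 1 FPKM. Voom on the rebuilt reads was an alternative. Zeb2 also had an exact permutation test. Intervals and floors on reads cover counting error only. Positions are from the deposited table, and 38 of 40 Hox rows have the same start and end in Gencode of that build. Full values are given for the 10 most abundant Hox genes and for any that passed or did not overlap. In each list up to 4 called genes are named, or the 2 most abundant where fewer than 2 passed. The members and lists were chosen with earlier results of these data known. The values of 1 Hox gene and of 1 list gene are not reported here.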

Additional observations from a re-analysis of the deposited data

Results flagged for a closer look

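In 56 sets of 4 libraries, the lowest or highest value was set against the other 3, and 5 stood apart by more than Dixon's 95% critical value for the gap over the range. Chance alone does this in about 1 of 20 sets, and nothing further was drawn from them. Zeb2+/- library 1 was high for Hoxa4, at 2.56 FPKM against 1.13 to 1.28 FPKM in the other Zeb2+/- libraries, and for Hoxb7, at 1.18 FPKM against 0.101 to 0.217 FPKM. WT library 3 was low for Hoxc5, at 0.124 FPKM against 0.427 to 0.451 FPKM in the other WT libraries. The Hoxd cluster held 1.47% of the summed Hox FPKM in WT library 2, against 4.39% to 4.74% in the others. The Hoxc cluster held 14.4% in Zeb2+/- library 4, against 7.73% to 8.35%.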

How the results depend on the processing

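None of the 18 tested Hox genes passed under any of 21 alternatives, where their lowest limma adjusted p was 0.0809. Hoxb1, fitted with no filter on reads, was at 0.0776. Of 359 fold changes of the 18, 325 kept their direction and 34, in 11 genes, turned. With array weights Hoxa5 was at -0.085, Hoxa10 -0.27, Hoxb2 -0.12, Hoxb5 -0.091 and Hoxb6 -0.63. Without Zeb2+/- libraries 1 and 3 together, Hoxa5 was at -0.33, Hoxa7 -0.24, Hoxa10 -0.43, Hoxb2 -0.13, Hoxb5 -0.33, Hoxb6 -0.92 and Hoxc4 -0.19. Those libraries had the most tested genes above the WT mean, so this removal tends to lower the values by construction. Hoxa4 was at 0.0020 with a pseudocount of 1 and 0.14 after quantile normalization, Hoxb6 at -0.072 under TPM scaling, and Hoxc6 at -0.0038 and -0.00023 with pseudocounts of 1 and 0.5. With single libraries left out the ranges were -0.28 to 0.10 (Hoxa4), -0.22 to 0.41 (Hoxa9), -0.020 to 0.53 (Hoxa10), -0.50 to 0.16 (Hoxb4), -0.039 to 0.49 (Hoxb5), -0.39 to 0.42 (Hoxb6), -0.10 to 0.37 (Hoxc4) and -0.26 to 0.27 (Hoxc6). The causes were not tested.

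Over all genes 474 passed, 61 higher and 413 lower. The count was 311 with a mean FPKM of at least 1, 288 with no filter, 302 after scaling to the rebuilt sums, 1028 with array weights (266 higher, 762 lower), 237 with voom, and 204 (without WT library 4) to 657 (without Zeb2+/- library 1) with 1 library left out, being 213, 245 and 258 without WT libraries 1, 2 and 3. TPM scaling moved the median of all genes to -0.12. In the lists 27 genes passed, 15 with voom and 20 to 33 with 1 library left out. With the replicate number as a block 325 genes passed. The deviations of same-numbered libraries correlated at 0.18, -0.16, 0.26 and -0.18. WT libraries 1 and 3 matched best with the Zeb2+/- library of the same number, and WT libraries 2 and 4 with Zeb2+/- libraries 4 and 2. A pairing by number was thus not shown, and these values cannot exclude one. Depth limits genes under about 0.1 FPKM.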
